A study of Mus musculus with 7 samples.

Results

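The late granule and mature neutrophil genes S100a8, S100a9, Ngp, Ltf, Lcn2, Camp, Mmp8, Mmp9, Retnlg and Lyz2 were followed in RNA-seq libraries of sorted mouse long-term haematopoietic stem cells (LT-HSCs). They are 10 of the 34932 genes measured and form a list given by name. No threshold on a value chose them, but the list was chosen with earlier results of these data known. The cells came from bone marrow flushed from leg bones and depleted of red cells by lysis, and were sorted as Lineage- Sca-1+ cKit+ CD150+ CD48-. There were 4 libraries labelled B4galt1 KO (genotype 129S1/C57Bl/6, B4-/-, a full knockout of the galactosyltransferase gene B4galt1) and 3 labelled B4galt1 WT (genotype 129S1/C57Bl/6). The labels give no age and do not say whether replicates were separate animals, so each p-value reflects the spread between 7 libraries, which may be technical.

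The main result is a low but graded signal. S100a9 was called lower in the libraries labelled KO, but the call was kept in only 1 of 7 fits with 1 library left out. S100a8, Ngp and Camp lay lower there in every library without passing the test. Lyz2, by far the most abundant of the 10, lay lower by a smaller amount and did not pass either. All KO libraries lay below all WT libraries for 7.47% of all tested genes. Ngp and Camp passed the filter on low counts through the WT libraries. Lcn2 ran the other way in its mean and overlapped between the groups. Ltf, Mmp8, Mmp9 and Retnlg were near the limit of detection. Of the 13 tested genes listed for the earlier, primary granule stage, 0 were called lower and 1 higher, with 10 above 0 and 3 below. The 1 called higher was Ms4a3, which encodes a membrane protein. Over all tested genes 1.66% were called lower and 0.599% higher, so a count of 0 lower has little weight.

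Neutrophils form in the marrow through a series of stages, and their granule proteins are made in waves. Primary (azurophil) granule genes such as Mpo come first in promyelocytes, secondary (specific) granule genes such as Ltf, Camp, Ngp and Lcn2 follow in myelocytes, and gelatinase genes such as Mmp9 come later. S100a8 and S100a9 encode the subunits of calprotectin, a calcium- and metal-binding complex that is very abundant in the cytoplasm of neutrophils. The transcription factors PU.1 (Spi1), C/EBPα (Cebpa) and C/EBPε (Cebpe) act in this programme. LT-HSCs sit upstream of it and are not a normal site of granule protein synthesis.

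The members share some genome neighbourhoods (GENCODE M21 on GRCm38, the mm10 build). S100a8 (ENSMUSG00000056054, chr3:90668978-90670035, plus strand) and S100a9 (ENSMUSG00000056071, chr3:90692632-90695721, minus strand) lie 22.6 kb apart. Camp (ENSMUSG00000038357, chr9:109847379-109849617, minus strand) and Ngp (ENSMUSG00000032484, chr9:110419747-110423012, plus strand) lie 570.1 kb apart, and Ltf (ENSMUSG00000032496, chr9:111019271-111042767, plus strand) lies 596.3 kb beyond Ngp. Mmp8 (ENSMUSG00000005800, chr9:7558456-7568485, plus strand) is far away on the same chromosome. Lcn2 (ENSMUSG00000026822, chr2:32384633-32388252, minus strand) and Mmp9 (ENSMUSG00000017737, chr2:164940780-164955850, plus strand) are distant on chromosome 2. Retnlg (ENSMUSG00000022651) is at chr16:48872621-48874496 on the plus strand and Lyz2 (ENSMUSG00000069516) at chr10:117277331-117282321 on the minus strand. All 10 are annotated as protein-coding.

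Upstream sequence is shown for the 5 members whose library values did not overlap between the groups. It comes from RefSeq on GRCm38.p6, where 9 of the 10 members were found (not Mmp9), and is written 5′ to 3′ along the gene's own strand. RefSeq places the start inside the GENCODE gene, by 93 bases for S100a8, 61 for Ngp, 161 for Camp and 49 for Lyz2, and those bases were left out, so that each sequence ends just before the GENCODE start given above. Capitals mark matches to the C/EBP core TTNNGNAA on either strand. The regions are chr3:90668821-90668977 (plus, 157 bases) for S100a8, chr3:90695722-90695971 (minus, 250 bases) for S100a9, chr9:110419558-110419746 (plus, 189 bases) for Ngp, chr9:109849618-109849706 (minus, 89 bases) for Camp and chr10:117282322-117282522 (minus, 201 bases) for Lyz2.
S100a8: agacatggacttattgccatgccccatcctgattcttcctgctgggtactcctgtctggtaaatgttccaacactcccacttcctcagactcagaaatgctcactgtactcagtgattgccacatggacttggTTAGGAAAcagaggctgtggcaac
S100a9: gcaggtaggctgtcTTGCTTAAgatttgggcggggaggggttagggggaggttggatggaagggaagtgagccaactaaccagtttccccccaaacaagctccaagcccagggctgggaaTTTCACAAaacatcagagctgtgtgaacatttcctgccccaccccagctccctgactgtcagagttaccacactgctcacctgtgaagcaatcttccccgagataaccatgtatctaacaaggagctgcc
Ngp: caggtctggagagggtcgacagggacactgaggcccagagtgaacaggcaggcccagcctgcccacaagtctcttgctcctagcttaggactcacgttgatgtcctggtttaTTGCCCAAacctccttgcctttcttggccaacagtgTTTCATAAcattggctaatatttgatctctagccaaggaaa
Camp: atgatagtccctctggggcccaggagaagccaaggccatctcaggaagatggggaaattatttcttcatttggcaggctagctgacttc
Lyz2: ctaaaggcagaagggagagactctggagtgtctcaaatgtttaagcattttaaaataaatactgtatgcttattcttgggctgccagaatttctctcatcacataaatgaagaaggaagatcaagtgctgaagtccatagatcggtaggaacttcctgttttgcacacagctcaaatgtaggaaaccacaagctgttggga
Counting back from the GENCODE start, the match begins 24 bases before it in S100a8, at 236 and 130 bases in S100a9 and at 77 and 41 bases in Ngp, and the sequences shown for Camp and Lyz2 held none. Over the full RefSeq windows of 300 bases, from 250 before to 50 after the RefSeq start, 8 of the 9 members held a match, as did 40.7% of all 32851 promoters. The PU.1 sequence GAGGAAGT, searched on both strands, was found in the windows of 2 of the 9 (S100a8 and Mmp8) and in 3.2% of all promoters. These are matches of letters and not shown to be bound.

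Depth ran from 23508985 to 34941390 estimated reads per library. The targeted gene does not separate the labels: B4galt1 RNA was between 14.6 and 19.3 CPM with the KO label and between 11.3 and 24.4 CPM in WT (log2 fold change -0.20, SE 0.27, edgeR adjusted p = 0.758), and counts over the whole gene do not show whether part of it is missing. Each direction below therefore rests on the labels. The sort genes Kit (209 to 391 CPM over all libraries) and Slamf1, which encodes CD150 (67.8 to 128 CPM), were well expressed. Cd48, the gene of the marker used to exclude cells, rose in the libraries labelled KO, from 23.9 ± 9.24 CPM (SD, n = 3) in WT to 125.7 ± 15.2 CPM (SD, n = 4; log2 fold change 2.40, SE 0.27, edgeR adjusted p = 0.000804). In each group 1 library lacked male-pattern expression of Y-linked genes, namely KO replicate 4 and WT replicate 3.

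**Figure D1:**
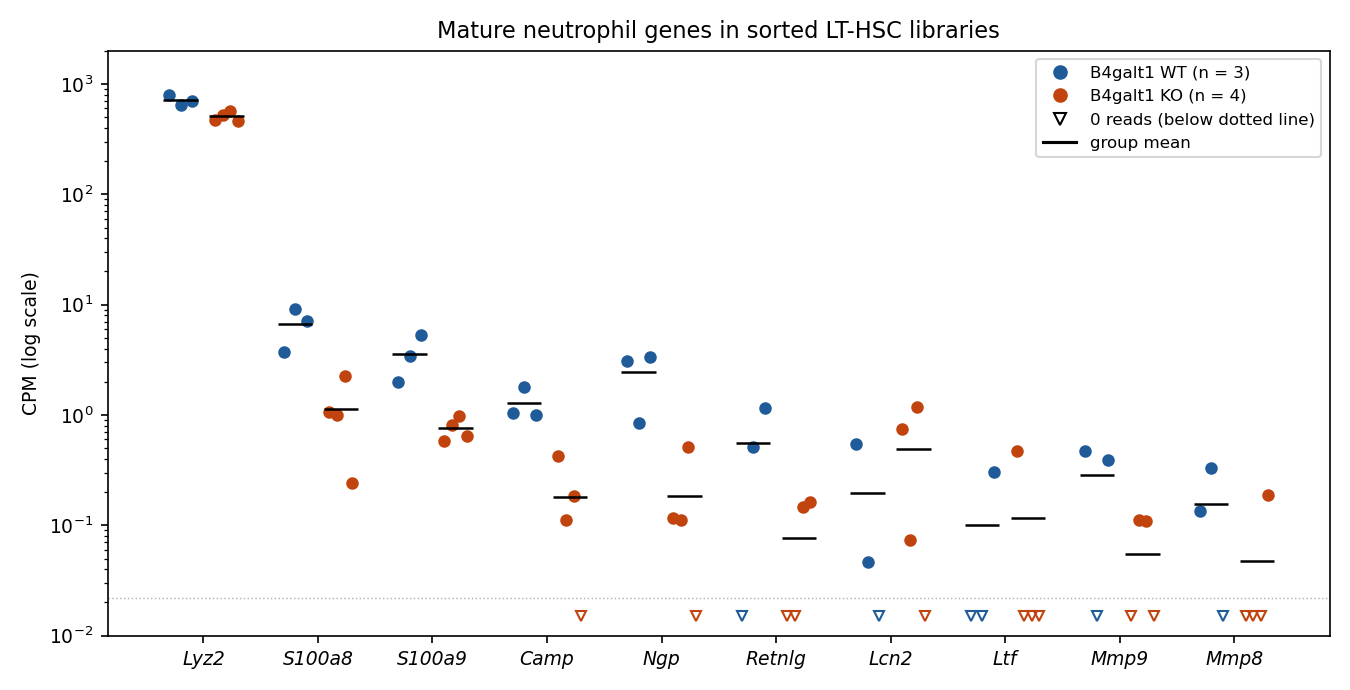
Level of each of the 10 genes in every library, in CPM (scaled estimated reads, log scale), ordered by level per length. Points are libraries, bars are group means, and open triangles are libraries with 0 reads. Lyz2 sits above 450 CPM in every library while the other 9 stay below 10 CPM. For Lyz2, S100a8, S100a9, Camp and Ngp every KO library lies below every WT library, an order shown by 7.47% of all tested genes.

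S100a8 and S100a9, the calprotectin pair, were the most abundant members after Lyz2. S100a8 measured 1.05, 0.998, 2.27 and 0.243 CPM across KO replicates 1 to 4, against 3.74, 9.09 and 7.16 CPM across WT replicates 1 to 3 (CPM, estimated reads scaled to library size by edgeR's TMM method). The groups did not overlap, and KO replicate 4 was the lowest of the 7. The means were 1.14 ± 0.837 CPM (SD, n = 4) and 6.66 ± 2.71 CPM (SD, n = 3), with a log2 fold change of -2.55 (SE 0.62, 95% interval -3.92 to -1.18) that did not pass the threshold of 0.05 (edgeR adjusted p = 0.0666). S100a9 was at 0.585, 0.813, 0.987 and 0.648 CPM in the KO replicates and at 1.97, 3.42 and 5.30 CPM in the WT replicates. Again no KO library reached a WT library, and the KO libraries were closer together than the WT libraries. S100a9 fell by 2.22 on the log2 scale (SE 0.48, 95% interval -3.29 to -1.16, edgeR adjusted p = 0.0404), from 3.56 ± 1.67 CPM (SD, n = 3) to 0.759 ± 0.180 CPM (SD, n = 4).

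The call for S100a9 is a narrow one. With 1 library left out at a time, its log2 fold change stayed between -2.53 and -1.83, but the call was kept only without WT replicate 1 and was lost in the other 6 cases (adjusted p between 0.0624 and 0.163). Within the 5 libraries with male-pattern Y-linked expression it was -1.73 (adjusted p = 0.180), and S100a8 was -2.13 (adjusted p = 0.0929). The other 2 libraries are 1 per group and give no value of their own. S100a8, which missed the threshold with edgeR, passed with DESeq2 (adjusted p = 0.00152) and with limma voom (adjusted p = 0.0369).

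The counts behind these values are small. S100a8 rested on 27, 27, 62 and 9 estimated reads for KO replicates 1 to 4, against 110, 194 and 166 for WT. S100a9 had 15, 22, 27 and 24 against 58, 73 and 123. Pooled over a group, S100a8 had 1.07 CPM (exact 95% Poisson interval 0.889 to 1.27) with the KO label and 6.35 CPM (5.79 to 6.95) in WT, and these intervals cover counting error only. Nearly all reads of S100a9 lay on the 512 nt transcript, and the 519 nt transcript took 18.6 reads in WT replicate 2 and none elsewhere. The split between transcripts is Salmon's estimate.

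Among the secondary granule genes, Ngp and Camp followed the same order. Both encode proteins of the cathelicidin family, Camp the precursor of the antimicrobial peptide CRAMP and Ngp the neutrophilic granule protein. Ngp was at 0.117, 0.111, 0.512 and 0 CPM across KO replicates 1 to 4, and at 3.09, 0.843 and 3.36 CPM across WT replicates 1 to 3. Camp was at 0.429, 0.111, 0.183 and 0 CPM against 1.05, 1.78 and 0.992 CPM. For both genes all KO libraries lay under all WT libraries and KO replicate 4 had no read, which allows up to 0.081 CPM at 3 reads. Ngp differed by -3.72 (SE 0.98, 95% interval -5.89 to -1.55, edgeR adjusted p = 0.0922) and Camp by -2.83 (SE 0.91, 95% interval -4.84 to -0.81, edgeR adjusted p = 0.171) on the log2 scale, so neither passed. In reads, Ngp had 20 in all KO libraries together and 187 in WT, and Camp 19 and 92. With 1 library left out at a time, Ngp was called in 1 of 7 fits, with an edgeR adjusted p up to 0.243. That fit left out KO replicate 3, which holds 14 of the 20 KO reads (-5.01, adjusted p = 0.0483). Camp was called in 0 of 7, with an adjusted p from 0.103 (without KO replicate 1, at -3.71) to 0.405.

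Lcn2 and Ltf, which encode the iron-handling proteins lipocalin 2 and lactoferrin of the same granules, showed no such order. Lcn2 was at 0.742, 0.0739, 1.17 and 0 CPM in the KO replicates and at 0.543, 0.0468 and 0 CPM in the WT replicates. High and low libraries occurred in both groups, with KO replicate 3 the highest at 32 estimated reads. The log2 fold change was 1.23 (SE 1.42, 95% interval -1.91 to 4.38, edgeR adjusted p = 0.717), and without WT replicate 1 it moved to 4.18 (adjusted p = 0.453). Ltf was at 0.468 CPM in KO replicate 1 and 0.302 CPM in WT replicate 3, and had 0 reads in the other 5 libraries. Of the 12 estimated reads of Ltf in KO replicate 1, 7.4 were placed on a transcript annotated as retained intron.

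Mmp8, Mmp9 and Retnlg were barely detected. Mmp8, neutrophil collagenase, had 7 reads in KO replicate 4, 4 in WT replicate 1, 7 in WT replicate 2 and none in the other 4 libraries. Mmp9, gelatinase B, had 3 reads each in KO replicates 2 and 3, 14 in WT replicate 1 and 9 in WT replicate 3. Of its 29 reads in all, 26 were assigned to a 1125 nt transcript annotated without a coding sequence and 3 to the 3175 nt coding transcript. Retnlg, a resistin-like secreted protein of mature neutrophils, had 4 and 6 reads in KO replicates 3 and 4 and 11 and 27 in WT replicates 2 and 3, and none in the other 3. The groups overlapped for Mmp8, Mmp9 and Retnlg. Pooled over a group, Mmp9 had 0.0513 CPM (exact 95% Poisson interval 0.0188 to 0.112) with the KO label against 0.311 CPM (0.197 to 0.467) in WT. Retnlg had 0.0854 CPM (0.041 to 0.157) against 0.514 CPM (0.363 to 0.705). These intervals do not meet, but they cover counting error only and not the spread between libraries. In the fit with no filter, which takes that spread into account, none of the 4 genes passed: the log2 fold change was -2.35 for Mmp9 (edgeR adjusted p = 0.518), -2.74 for Retnlg (0.432), -1.49 for Mmp8 (0.688) and 0.17 for Ltf (0.973).

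Lyz2, which encodes lysozyme M of neutrophils, monocytes and macrophages, was of another order of size. It was at 475, 521, 574 and 462 CPM across KO replicates 1 to 4, and at 796, 651 and 696 CPM across WT replicates 1 to 3. All KO libraries lay below all WT libraries, with 508.2 ± 50.8 CPM (SD, n = 4) against 714.3 ± 74.3 CPM (SD, n = 3). The log2 fold change of -0.49 (SE 0.15, 95% interval -0.83 to -0.16) did not pass (edgeR adjusted p = 0.150), although it passed with DESeq2 (adjusted p = 0.0221). With between 12173 and 23436 estimated reads per library, counting error was small beside the spread between replicates. The groups overlapped in deposited TPM, at 385 to 491 with the KO label and 425 to 622 in WT. Its paralogue Lyz1, with which Lyz2 can exchange reads, was at most 0.34 CPM.

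Per transcript length, in deposited TPM summed over a gene's transcripts, the order of mean levels over the 7 libraries was Lyz2 (481.9), S100a8 (9.02), S100a9 (4.89), Camp (1.06), Ngp (0.993), Retnlg (0.594), Lcn2 (0.498), Ltf (0.237), Mmp9 (0.141) and Mmp8 (0.0362). The order below S100a9 differed by group. With the KO label Lcn2 (0.682) stood above Camp (0.322), Ltf (0.202), Retnlg (0.186) and Ngp (0.170). In WT, Ngp (2.09) and Camp (2.05) led, followed by Retnlg (1.14), Ltf (0.284), Mmp9 (0.279) and Lcn2 (0.254). Over all 7 libraries, only the step from Lyz2 to S100a8 is larger than the spread between libraries, since S100a8 reached at most 20.5 TPM. Camp and Ngp change places in CPM, as do Retnlg with Lcn2 and Ltf with Mmp9, and the libraries of these neighbours overlap. S100a8 stood above S100a9 in TPM in 6 of the 7 libraries, by 1.34 to 2.79 times, and below it in KO replicate 4, at 0.407.

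The members did not keep a fixed ratio to each other. There were 1.21, 10.8 and 2.13 reads of S100a8 for each read of Ngp in WT replicates 1 to 3, and 9, 9 and 4.43 in KO replicates 1 to 3. Per read of Camp there were 3.55, 5.11 and 7.22 reads of S100a8 in WT and 2.45, 9 and 12.4 in these KO libraries. The highest library also differed by gene: WT replicate 1 for Lyz2 and Mmp9, WT replicate 2 for S100a8, Camp and Mmp8, WT replicate 3 for S100a9, Ngp and Retnlg, KO replicate 3 for Lcn2 and KO replicate 1 for Ltf. Summed without Lyz2, the other 9 members came to 3.40, 2.22, 5.38 and 1.24 CPM across KO replicates 1 to 4, and to 11.01, 16.02 and 18.7 CPM in the WT replicates. Every KO library was below every WT library in this sum, of which S100a8 and S100a9 made up between 48.3% and 81.7%. By library, 3, 3, 2 and 5 of the 10 members had no read in the KO replicates and 2 had none in each WT replicate.

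**Figure D2:**
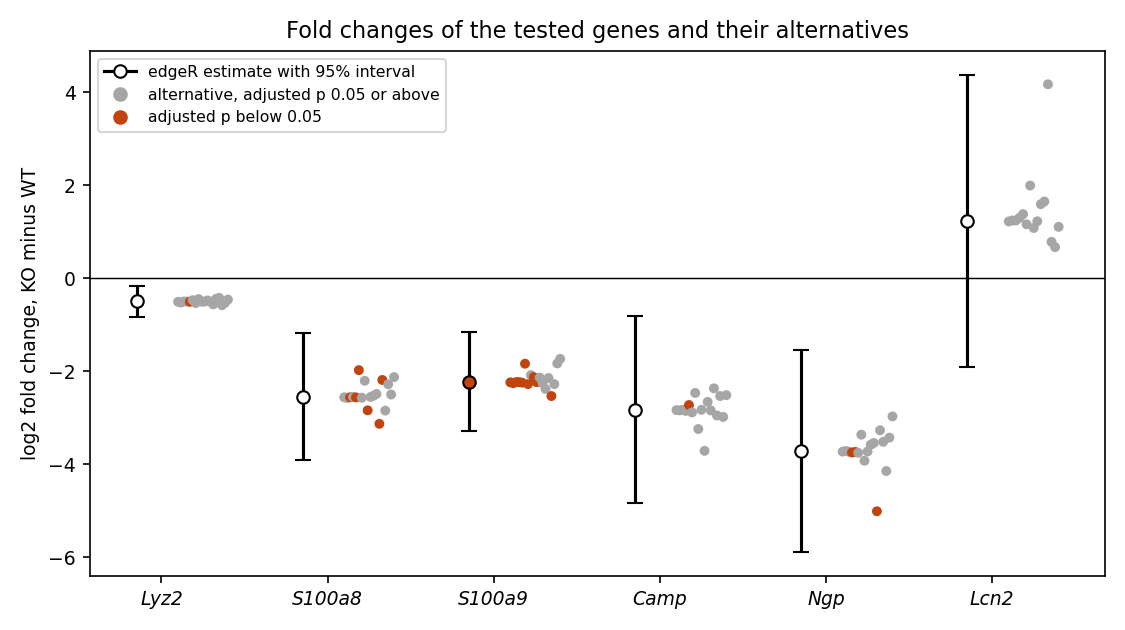
Log2 fold change (KO minus WT) of the 6 tested members with its 95% interval (left point of each pair) and under each alternative fit (right points, red where the adjusted p was below 0.05). S100a9 is the 1 gene whose main estimate passed, the estimates of Lyz2, S100a8, S100a9, Camp and Ngp stay below 0 throughout, and the interval of Lcn2 crosses 0.

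Of the 10 members, 6 passed the filter on low counts and could be tested, and Ltf, Mmp8, Mmp9 and Retnlg did not. Ngp and Camp passed it through the WT libraries, where all 3 were above the filter level of 0.383 CPM against 1 of 4 KO libraries, so a count over the tested members has little weight. Over all genes, 1.66% of the 14695 tested genes were called lower with the KO label and 0.599% higher. Of the members, 1 was called lower (S100a9) and 0 were called higher by edgeR, with none higher at an unadjusted p below 0.05 and none higher with DESeq2 or limma voom. DESeq2 called 4 lower (S100a8, S100a9, Ngp and Lyz2), where it called 3.5% of all genes lower, and limma voom 4 (S100a8, S100a9, Ngp and Camp), where it called 2.99% lower. These tools called 2.4% and 1.83% of all genes higher. With no filter 2 members were called lower (S100a8 and S100a9, against 1.24% of all genes), with Y-linked expression as a covariate also S100a8 and S100a9 (against 2.69%), and in the 5 libraries with male-pattern expression 0 (against 1.7%). All KO libraries lay below all WT libraries for 5 of the 10 members, and 7.47% of all tested genes showed this. The median log2 fold change over all tested genes was 0.03.

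The other genes of the programme were taken from lists given by name, also chosen with earlier results of these data known. Among 13 tested genes listed for the primary granule stage, Ms4a3 rose, 0 fell and 12 did not pass, with a median log2 fold change of 0.72. Not all genes of this list encode granule proteins. Ms4a3, a membrane protein of granulocyte and monocyte progenitors, was at 20.5 ± 5.98 CPM (SD, n = 4) with the KO label and 6.28 ± 1.88 CPM (SD, n = 3) in WT (log2 fold change 1.70, SE 0.33, edgeR adjusted p = 0.0232). With 1 library left out at a time its call was kept in 2 of 7 cases, with an adjusted p up to 0.0948. Mpo, myeloperoxidase, was at 21.8, 33.3, 28.1 and 74.8 CPM across KO replicates 1 to 4, and at 13.6, 3.56 and 3.97 CPM across WT replicates 1 to 3. These groups did not overlap either, in the direction opposite to S100a8 (log2 fold change 2.48, SE 0.56, edgeR adjusted p = 0.0509). All KO libraries lay above all WT libraries for 8.23% of all tested genes. Igsf6 at 2.09 and Prtn3 (proteinase 3) at 0.72 did not pass. Elane, neutrophil elastase, was below 1.7 CPM in every library. DESeq2 and limma voom each called 5 genes of the primary granule list higher and none lower.

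Among 15 tested genes of secondary and tertiary granules outside the members, 2 were higher and 2 lower at an unadjusted edgeR p below 0.05. Of the 15, edgeR called 1 lower and 0 higher and 14 did not pass, with a median of 0.21. The lower gene was Slpi, a secreted inhibitor of neutrophil serine proteases, at 12.8, 7.87, 10.6 and 7.02 CPM across KO replicates 1 to 4, and 107.5, 232.0 and 53.1 CPM across WT replicates 1 to 3. It fell by 3.77 on the log2 scale (SE 0.43, edgeR adjusted p = 0.000935) and was called in each of the 18 alternatives. Slpi is also made by cells other than neutrophils. Ncf4 and Cyba, subunits of the NADPH oxidase, were at 0.98 and -0.71 and Itgam, the integrin chain CD11b, at 1.60. None of these passed with edgeR, none with limma voom, and DESeq2 called Ncf4 higher. Chil3 and Cd177, abundant in maturing neutrophils, had 0.039 CPM (1 read) in KO replicate 1 and 0 elsewhere.

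Of 18 tested surface and late genes of mature neutrophils, Hdc rose, 0 fell and 17 did not pass, with a median of -0.04. Hdc, the histidine decarboxylase of neutrophils, basophils and mast cells, was at 7.24 ± 3.51 CPM (SD, n = 4) against 0.819 ± 0.762 CPM (SD, n = 3; log2 fold change 3.11, SE 0.67, edgeR adjusted p = 0.0404). Its call was kept in 2 of 7 fits with 1 library left out, with an adjusted p up to 0.145. DESeq2 called 4 genes of this list higher and 1 lower, and limma voom 2 and 1, with Hdc higher and Trem1 lower in both. The chemokine receptor Cxcr2 was at 1.06 and Wfdc17 at 1.57, above 0 with no overlap between the groups, an order shown by 8.23% of all tested genes. Trem1, an activating receptor, was at -2.94 (edgeR adjusted p = 0.0689) with 0.148 ± 0.0983 CPM (SD, n = 4) against 1.14 ± 0.279 CPM (SD, n = 3), below 0 with no overlap. Of the 37 genes of this list, 8 had no read in any library, among them Ly6g, the surface marker used to define neutrophils, and the stefins Stfa1, Stfa2 and Stfa3. Among 9 tested granulocyte transcription factors edgeR called 0, while at an unadjusted p below 0.05 there were 2 higher and 0 lower, and DESeq2 and limma voom each called 1 higher, Cebpa (log2 fold change 2.44, edgeR adjusted p = 0.104). Spi1 was at 0.44, and Cebpe reached at most 0.402 CPM in any library.

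**Figure D3:**
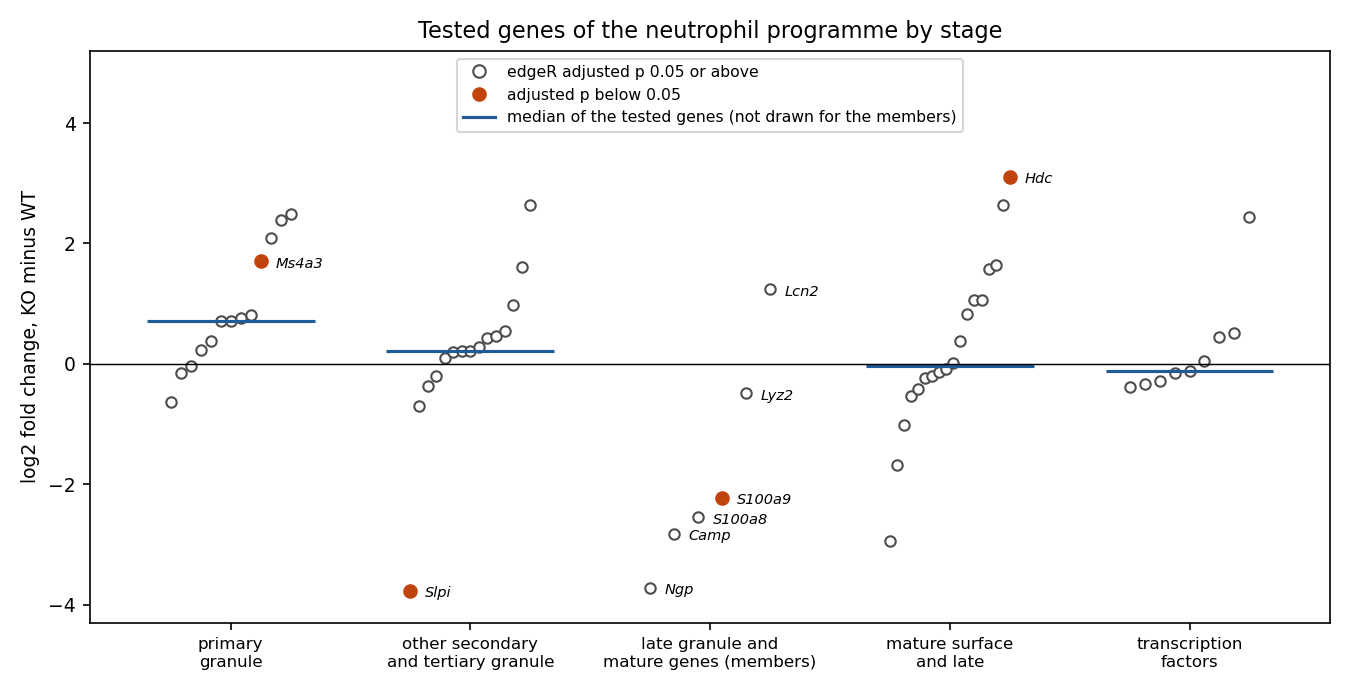
Log2 fold change (KO minus WT) of the tested genes in each group of the neutrophil programme, with genes past the threshold filled and named. Medians are 0.72 for the primary granule list and 0.21 for other secondary and tertiary granule genes. They are -0.04 for mature surface and late genes and -0.12 for transcription factors. Of the 6 tested members 5 lie below 0, where 47.3% of all tested genes do. Ngp and Camp passed the filter through the WT libraries, so this count has little weight and no median is drawn for the members.

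Relatives and partners of the members were mostly uncalled. Of 9 tested S100 genes outside S100a8 and S100a9, edgeR called 0, while at an unadjusted p below 0.05 there were 0 higher and 1 lower, DESeq2 called 1 lower (S100a1) and limma voom 0. S100a1 was at -0.77, S100a6 at 0.34 and S100a10 at -0.30 on the log2 scale. Among 14 tested partners and receptors, Cap1, an actin regulator reported as a resistin receptor, fell by 0.82 (SE 0.17, edgeR adjusted p = 0.0352) and 13 did not pass with edgeR, with a median of -0.02. The call for Cap1 was kept in 2 of 7 fits with 1 library left out, with an adjusted p up to 0.140. Timp3, an inhibitor of metalloproteinases, was at -1.28 (edgeR adjusted p = 0.0786) and was called lower, as was Cap1, by both DESeq2 and limma voom. Tlr4, a receptor of calprotectin, was at -0.11 with 8.92 ± 2.11 CPM (SD, n = 4) with the KO label and 9.62 ± 0.867 CPM (SD, n = 3) in WT. Of 8 other tested matrix metalloproteinases, edgeR called 0, while at an unadjusted p below 0.05 there were 2 higher and 0 lower, and DESeq2 called 2 higher (Mmp2 and Mmp14) and limma voom 1 (Mmp14). Their log2 fold changes were 1.15 for Mmp2 and 1.48 for Mmp14.

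Markers of other cells moved with the same labels, and their part in the member results was not tested. The 20 megakaryocyte and platelet markers summed to between 3161 and 4028 CPM with the KO label and between 9855 and 16190 CPM in WT, with 15 of 20 lower and 0 higher. The 14 eosinophil, basophil and mast cell markers summed to 340.9 to 1259 CPM with the KO label and to 302.6, 13.5 and 15.995 CPM across WT replicates 1 to 3. Most of each KO sum came from Prss34 (216.8 to 615.3 CPM) and Mcpt8 (75.2 to 450 CPM), and Mcpt8 overlapped between the groups. Of the 14 markers, 8 stayed under 1 CPM in every library. In that list Fcer1a, a chain of the IgE receptor, rose (log2 fold change 2.81, edgeR adjusted p = 0.0328, kept in 2 of 7 fits with 1 library left out), 5 tested genes did not pass, and Prg3, Ear1, Ear6 and Tpsb2 were at 0 throughout. The 23 monocyte and macrophage markers, relevant to Lyz2, summed to 46.5 to 89.4 CPM with the KO label and 75.5 to 87.7 CPM in WT. In that list Ms4a6c (1.203, kept in 1 of 7 fits with 1 library left out) rose, F13a1 (-6.24), which platelets also carry, fell, and 15 did not pass with edgeR, and Adgre1, the gene of F4/80, was at 0 in WT and at most 0.407 CPM in the libraries labelled KO.

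**Figure D4:**
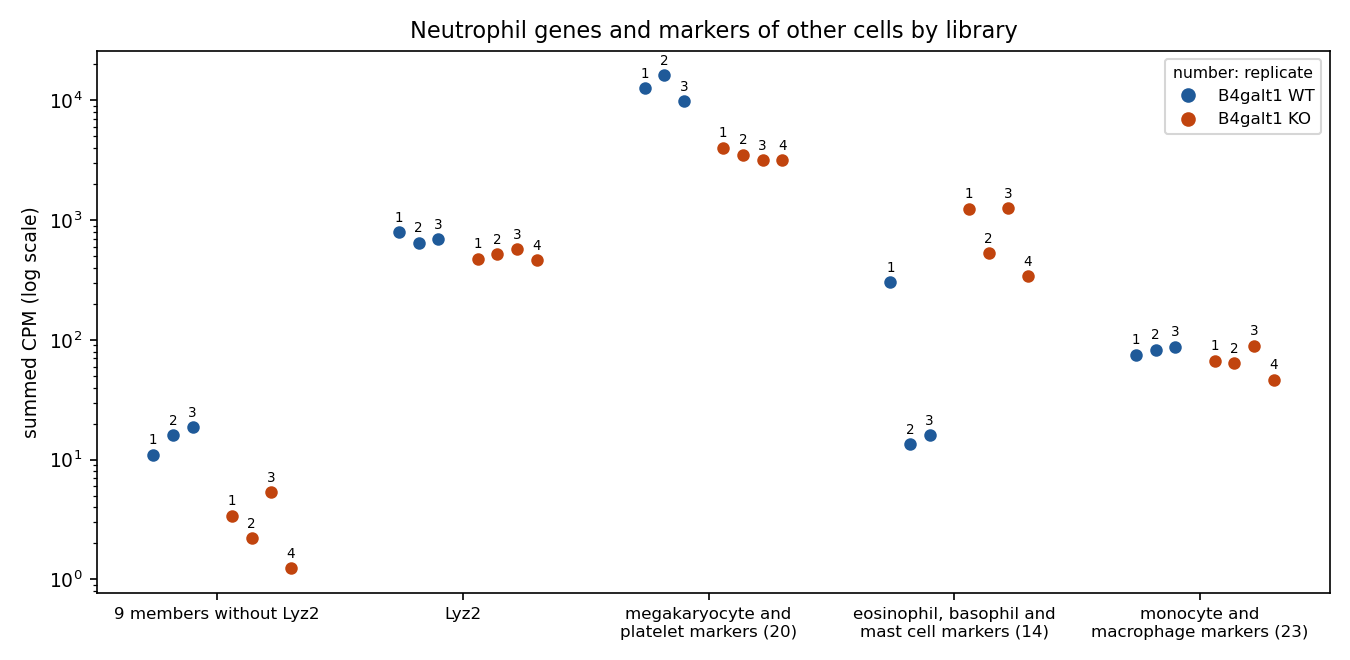
Summed CPM (log scale) per library of the 9 members without Lyz2, of Lyz2 alone, and of 3 marker lists, with replicate numbers above the points. The 9 members and the megakaryocyte and platelet markers lie lower in every KO library, the eosinophil, basophil and mast cell markers lie higher there, and the monocyte and macrophage markers overlap.

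Within the erythroid list, alpha-globin RNA lay lower with the KO label, while 9 of the 14 tested genes lay above 0 (median log2 fold change 0.50). At an unadjusted edgeR p below 0.05, 3 genes of that list were higher and 3 lower. Hba-a1 was at 10.7, 0.222, 0.695 and 0 CPM in the 4 KO replicates, against 127.9, 110.5 and 46.4 CPM in WT. Hba-a2 was at 10.6, 0, 0.366 and 0.054 CPM, against 56.5, 62.4 and 23.9 CPM. For both genes the groups did not overlap, and KO replicate 1 was the highest KO library. The log2 fold change was -5.06 for Hba-a1 (SE 1.21, edgeR adjusted p = 0.0622) and -4.14 for Hba-a2 (SE 1.30, edgeR adjusted p = 0.159). Without KO replicate 1 they were -8.38 (edgeR adjusted p = 0.00033) and -8.45 (0.000285). With 1 library left out at a time, Hba-a1 was called in 2 of 7 fits and Hba-a2 in 1 of 7. The edgeR adjusted p of these fits ran up to 0.176 for Hba-a1 and 0.330 for Hba-a2. Limma voom called both lower and DESeq2 neither. The beta-globins Hbb-bs (-0.24) and Hbb-bt (1.51) overlapped between the groups. The part of these RNAs in the member results was not tested.

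The sums of the remaining marker lists overlapped between the groups. B cell and plasma cell markers summed to 59.99 to 75.9 CPM with the KO label and 72.8 to 86.7 CPM in WT, and edgeR called 0 of 11 (at an unadjusted p below 0.05 there were 2 higher and 2 lower, none with DESeq2 or limma voom), with Pax5, Vpreb2 and Igll1 at 0. T and NK cell markers summed to 27.3 to 38.7 and 22.3 to 34.7 CPM, with 0 of 8 called by edgeR (at an unadjusted p below 0.05 there were 1 higher and 1 lower, none with DESeq2 or limma voom) and Ncr1 and Gzma at 0. Erythroid markers summed to 305.6 to 1771 and 218.8 to 1159 CPM and overlapped although the alpha-globins did not. Of 14 tested, edgeR called Sptb lower (-2.54, kept in 3 of 7 fits with 1 library left out), as did DESeq2 and limma voom, and Slc4a1 was at 0. Stromal and endothelial markers summed to 46.7 to 80.1 and 58.2 to 66.0 CPM with Sparc (2.99) called higher of 6 by edgeR, and DESeq2 and limma voom also called Kdr lower (-1.58), with Cdh5 and Col3a1 at 0. Of 15 LT-HSC sort and identity genes, Cd48 rose, Mllt3 (-1.15) fell and 13 did not pass with edgeR. DESeq2 also called Procr (-0.97) and Fgd5 (-1.16) lower and Cd34 (1.09) and Flt3 (1.15) higher, and limma voom also called Procr and Cd34. In bulk RNA, fewer cells carrying a transcript and less of it per cell cannot be told apart.

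Genes with the pattern most like the calprotectin pair were taken by the root mean square difference in centred log2 CPM over the 7 libraries, among 11284 protein-coding genes with a mean log2 CPM of at least 1. For S100a9 they were Lgalsl (0.24), Ckb (0.31), Dgkh (0.32), Pde5a (0.33) and Capn3 (0.38). For S100a8 they were Sfrp1 (0.52), Mylk (0.52), Me1 (0.57), Prr5l (0.58) and Sult1a1 (0.61). None of the 10 is in the lists of neutrophil genes used here. All were lower in every KO library than in every WT library, as their choice favours, and with that many candidates and 7 libraries close matches are found easily.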

How the data were processed

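RNA was measured in 7 libraries made, per the labels' protocols, with the SMART-Seq v4 kit, a chemistry without strand marking. The submitters' processing notes name cutadapt, Salmon 0.11.2 and mm10. The authors' transcript set is not given in the sources. The authors deposited estimated counts, TPM and effective lengths per transcript. Transcripts were joined without version to GENCODE M21, and 111787 of 112092 matched. The unmatched ones held 0.0836% to 0.123% of reads. Estimated counts were summed per gene and rounded. Groups were compared with edgeR 4.0.16 (quasi-likelihood, TMM, filterByExpr) in R 4.3.3, with Benjamini-Hochberg adjustment over all 14695 tested genes at 0.05. SE is the absolute log2 fold change over the square root of F. Levels between genes use the deposited TPM. On simulated counts for this comparison, over 14334 genes, the test recovered 35% of genes changed 2-fold and 80% changed 4-fold and called 11 of 14134 unchanged genes. The changed genes were drawn only above a minimum mean CPM that the tested members Camp (0.650) and Lcn2 (0.368) do not reach. The recovered shares therefore do not apply to these members.

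The members and lists were chosen with earlier results of these data known. Named genes are the 10 members, B4galt1, up to 4 tested genes of smallest p from each of 17 lists, and the 5 genes most like S100a8 and S100a9. Others (Elane, Chil3, Cd177, Ly6g, the stefins, Cebpe, Tlr4, Lyz1, Adgre1, Prss34, the globins, Kdr, Procr, Fgd5, Cd34, Flt3, Kit, Slamf1 and the markers named at 0) were chosen once values were known. Alternative fits used RLE or upper quartile scaling, a stricter filter or none, DESeq2 1.42.0, limma 3.58.1 voom with quality weights, a length offset, a replicate block, a Y-linked covariate, only protein-coding genes, and each library left out in turn. A fit on the 5 libraries with male-pattern Y-linked expression was added after seeing the data.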

Additional observations from a re-analysis of the deposited data

Results flagged for a closer look

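For 85 named genes, values of the 4 libraries labelled KO were examined for 1 library far from the other 3 (by Dixon's gap criterion). Chance gives this in about 1 of 20 groups of continuous values. Among the members, Ltf stood out in replicate 1 at 0.468 CPM against 0, and Mmp8 in replicate 4 at 0.189 CPM against 0. With 0 reads in the other 3 libraries any value passes the criterion, so the flags of Ltf and Mmp8 carry no weight. B4galt1 was at 19.3 CPM in replicate 1 against 14.6 to 14.9. In replicate 4, Timp3 was at 53.3 CPM against 29.3 to 31.1, Mmp14 at 18.8 against 10.2 to 10.98, and Sfrp1 at 0.648 against 1.91 to 2.16. In replicate 1, Ckb was at 2.11 CPM against 3.30 to 3.47 and Cx3cr1 at 1.29 against 0.512 to 0.591. The same library held 10.7 CPM of the globin gene Hba-a1, where the others reached 0.695, and 10.6 CPM of Hba-a2, where they reached 0.366. Rag2 was at 1.11 CPM in replicate 2 against 0.390 to 0.475. Replicate 4 was low in all 4 Y-linked genes. It had 8.94 CPM of Kdm5d, and the other libraries 37.1 to 40.6. Uty measured 1.86 CPM there and 43.4 to 49.9 elsewhere. Ddx3y measured 0.054 CPM there and 105.8 to 121.5 elsewhere. Eif2s3y measured 0.081 CPM there and 140.4 to 160.4 elsewhere.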

How the results depend on the processing

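S100a8, S100a9, Ngp, Camp and Lyz2 kept a negative log2 fold change in every fit that tested them, and Lcn2 a positive one. The stricter filter left out Ngp, Camp and Lcn2, and Lcn2 was also not tested without KO replicates 1 and 3. S100a8 passed with no filter (-2.56), DESeq2 (-2.56), limma voom (-1.98) and Y-linked expression as a covariate (-2.84). Ngp passed with DESeq2 (-3.75) and limma voom (-3.74), Camp with limma voom (-2.73) and Lyz2 with DESeq2 (-0.51). S100a9 lost its call in the 5 libraries with male-pattern Y-linked expression (-1.73). With 1 library left out at a time, S100a8 ran from -3.13 to -2.19, S100a9 from -2.53 to -1.83, Ngp from -5.01 to -3.27, Camp from -3.71 to -2.37, Lcn2 from 0.67 to 4.18 and Lyz2 from -0.58 to -0.42, and 0 to 2 members were called lower. Members called lower numbered 2 with no filter, 4 with DESeq2, 4 with limma voom, 2 with Y-linked expression as a covariate and 0 in the 5 libraries with male-pattern expression. Over all genes, 88 were called higher and 244 lower. With 1 library left out, 30 to 130 were higher and 157 to 279 lower. DESeq2 called 352 higher and 514 lower, limma voom 269 and 439, the covariate 218 and 396, and the length offset 215 and 251, a more even split than the 88 and 244 above. With 1 library left out, B4galt1 ran from -0.47 to 0.037, turning positive without WT replicate 2, and Eif2s3y from -0.18 to 0.96, turning negative without WT replicate 3. Why these values moved was not tested.

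Replicate numbers 1 to 3 occur in both groups, but same-numbered libraries did not deviate together (correlations of -0.05, -0.12 and -0.04). The labels do not say what the numbers stand for, so whether same-numbered libraries were handled together is not known. With the replicate number as a block, S100a9 was at -2.08 (edgeR adjusted p = 0.134), 0 members were called lower, and 58 genes were called higher and 182 lower over all genes. In that fit KO replicate 4 has no WT library of the same number and adds nothing to the contrast.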
